A study of Saccharomyces cerevisiae with 72 samples.

Results

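Endomitotic *mad1Δ bub2Δ* yeast (strain 41994) cultured with nocodazole for 16 h were compared with the same strain cultured for the same 16 h with DMSO, the solvent of the drug. The comparison holds 6 of the 72 RNA-seq libraries of the series, 3 replicate cultures of each kind, and the members were chosen by strain, time and treatment alone. All 6 cultures shared a haploid *MATa* W303 strain in which *bub2::HIS3* and *mad1::URA3* replace the checkpoint genes, on a background of *can1-100*, *trp1-1*, *ura3*, *his3-11,15*, *leu2-3*, *ade2-1*, *GAL* and *psi+*, grown in yeast extract, peptone and dextrose at 30°C. The nocodazole cultures were given 15 μg/mL of the drug at the start and 7.5 μg/mL more every 4 h, and the others received the same volume of DMSO. Cultures of both kinds were diluted to stay in log phase.

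*MAD1* encodes a component of the spindle checkpoint and *BUB2* a component of the spindle position checkpoint. Nocodazole depolymerizes microtubules, and wild-type cells respond by stopping before anaphase. Without these checkpoints the cell cycle runs on although no spindle forms. DNA then accumulates in 1 cell body over successive rounds, and the buds that separate from it hold no nucleus. A nocodazole culture is therefore a mixture of polyploid mothers and anucleate daughters, and the libraries were made from whole cultures, so fewer cells of a kind and less RNA per cell cannot be told apart. The paper also reports that inviable cells became more frequent as DNA content rose, whereas viability stayed high in cultures without the drug. The part of dying or lysed cells in the values below was not tested. Below, the cultures with nocodazole and with DMSO are called polyploid and cycling cells.

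Other groups of 3 libraries each at 16 h are used only to place the values. Arrested cells are *MAD1 BUB2* cells (strain 2587) held in nocodazole. Polyploid and cycling *cdc24-1 swe1Δ* cells (strain 41742, *swe1::kanMX*) were kept at 37°C, where *cdc24-1* blocks budding and *swe1Δ* lets the nuclear cycle go on, and at 25°C, where they bud and cycle. The paper lists strain 41742 as derived from a strain of another background that was backcrossed to W303. The comparison with arrested cells uses the same 3 polyploid libraries, whereas the *cdc24-1 swe1Δ* comparison shares no library with it.

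The mean DNA content assigned to the polyploid cultures at 16 h was 449, 452 and 425 kAU (kilo arbitrary units), and that of the cycling cultures was 88.5, 84.6 and 83.9 kAU. All 3 polyploid cultures lay above all 3 cycling ones, and the means, 442 ± 14.5 and 85.7 ± 2.50 kAU (SD, n = 3), differed 5.16-fold (two-sided exact permutation test, p = 0.1, the smallest that 3 against 3 cultures allow). Arrested cells stood at 97.9 ± 1.03 kAU at 16 h (SD, n = 3). Polyploid *cdc24-1 swe1Δ* cultures at 16 h had 271, 277 and 245 kAU, and the cycling ones 85.7, 86.6 and 99.7 kAU. The step in DNA content was thus smaller in that strain than in *mad1Δ bub2Δ* cells.

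**Figure D1:**
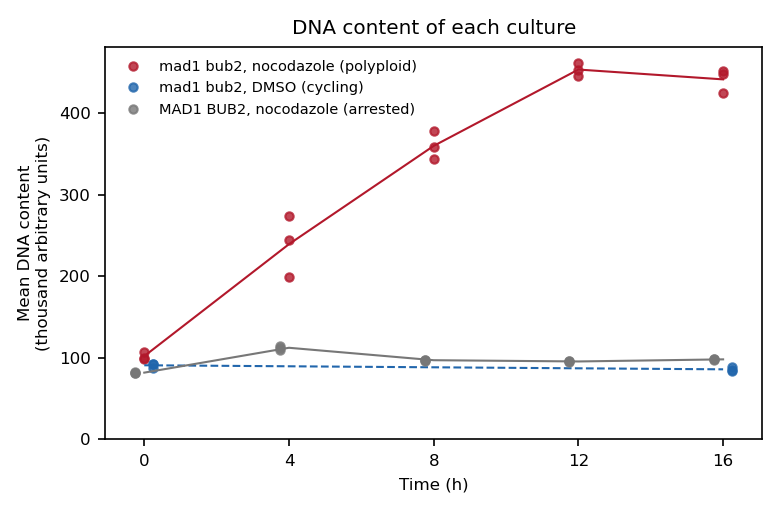
Mean DNA content (kAU) of each culture against time in hours; points are single cultures and lines join group means. The polyploid cultures at 16 h sit between 425 and 452 kAU, and every arrested culture lies between 81.0 and 115 kAU.

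The total count was 5573321, 5136065 and 6042823 in the polyploid libraries and 8234311, 7104629 and 8000800 in the cycling ones, so the polyploid libraries were the shallower ones. Ribosomal RNA took 4.65% to 6.03% of the counts of polyploid libraries and 1.33% to 2.32% of those of cycling libraries. Polyploid *cdc24-1 swe1Δ* libraries at 16 h held 5816777, 3825482 and 1597321 counts, with 7.04%, 16.7% and 5.34% ribosomal RNA. The cycling libraries of that strain held 9646255, 8504398 and 5647146 counts, with 1.73%, 0.736% and 1.68%. *BUB2* had 0 counts in all 6 libraries, which allows up to 3 counts in each, against 99, 117 and 100 counts in arrested *MAD1 BUB2* cells. *MAD1* kept 193, 121 and 203 counts in polyploid and 255, 341 and 174 in cycling libraries, against 944, 428 and 841 in arrested cells. How much of *MAD1* the *mad1::URA3* allele removes is not given in the sources used here.

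To show promoters from a gene group that rose, stretches of promoters are printed here, read 5′ to 3′ on the strand of the gene from the RefSeq copy of assembly R64, with each match in capitals. They show CTA and TAG with 4 letters of any kind between them. This pattern is looser than the element bound by Rlm1, the transcription factor at the end of the cell wall integrity pathway.

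*PIR3* (chrXI:144096-144155, plus strand): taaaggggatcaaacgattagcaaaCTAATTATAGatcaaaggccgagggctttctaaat
*GSC2* (chrVII:547903-547962, plus strand): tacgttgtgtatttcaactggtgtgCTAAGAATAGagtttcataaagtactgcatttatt
*RLM1* (chrXVI:381424-381483, minus strand): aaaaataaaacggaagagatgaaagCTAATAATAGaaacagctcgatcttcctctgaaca

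In the 500 bases before the start codon, this loose pattern was matched on either strand in 11 of the 35 cell wall integrity genes (31.4%). It was matched in 9.2% of all promoters of the same length. The 35 genes were listed as members or targets of the pathway. *SLT2* held no match in that window. A match is a description of the letters and not a measured site.

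Over the whole genome, 3685 of 6025 genes tested (61.2%) were called different between polyploid and cycling cells by edgeR's quasi-likelihood test at a Benjamini-Hochberg adjusted p under 0.05, the criterion meant by "called", "rose" and "fell" below. Of these, 1844 genes were higher (30.6%) and 1841 lower (30.6%) in polyploid cells, and 1009 (16.7%) and 805 (13.4%) were called and at least 2-fold different. The values of the 3 libraries of one group lay wholly above those of the other for 3789 genes (62.9%). For the lists below, 30.6% each way is the share to set a count at 16 h against. Levels are counts scaled to library size (CPM) after TMM normalization and differences are log2 fold changes of polyploid over cycling cells with their standard error, so each is relative to the rest of the library and not per cell.

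The split between higher and lower genes depended on the scale. On the deposited log2(TPM + 1) values, which are not corrected for the makeup of a library, the median of all genes lay 0.99 above 0, and limma called 4272 genes higher and 275 lower. Genes of ribosomal proteins made up 25.7%, 29.3% and 21.2% of the counts without ribosomal RNA in the cycling libraries and 8.19%, 8.39% and 7.59% in the polyploid libraries, a difference that moves with this shift. A list with a median between −0.99 and 0 by edgeR can therefore lie above 0 on the TPM scale, and where this happened it is stated.

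**Figure D2:**
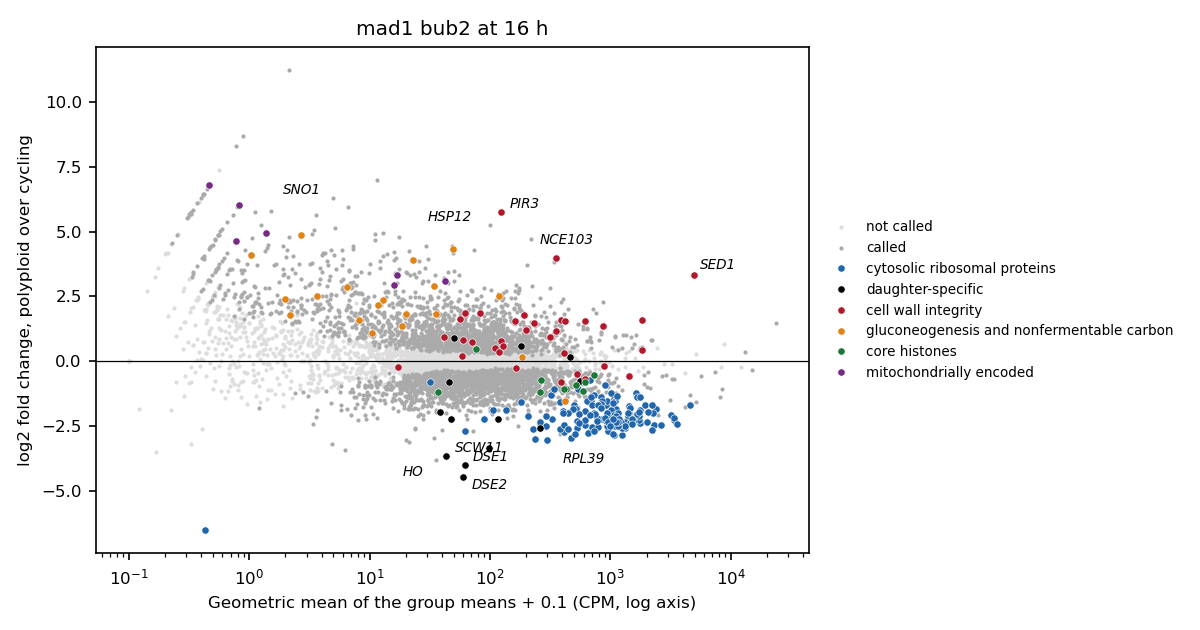
Log2 fold change of polyploid over cycling *mad1Δ bub2Δ* cells at 16 h against the level of each gene (geometric mean of the group means plus 0.1, in CPM, log axis, not corrected for gene length); coloured points are members of 6 lists, and dark and light grey are other called and not called genes. The ribosomal protein genes form a cloud at a median of −2.18, with *PIR3* at 5.75 and *DSE2* at −4.46 far from it on either side.

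A library-wide trend with gene length ran alongside the comparison. Across 5680 protein-coding nuclear genes, which are not independent replicates, the log2 fold change correlated with log2 gene length (Pearson's r = 0.245, Spearman's ρ = 0.354, given as a description). The median change rose from −0.71 in genes under 500 bases to 0.56 in genes of 3000 bases or more. The excess of short genes also varied among replicates: the median of genes under 500 bases minus that of genes of 2000 bases or more, on the log2 scale and relative to the mean of all 36 libraries of the test, was 0.81, 1.29 and 0.27 in cycling and −0.20, −0.33 and −0.32 in polyploid libraries. Because of this, lists whose median moved by over 1.5 times or changed sign are given also with the trend removed from each library, an alternative chosen after the data were seen. The part of library preparation in this trend was not tested.

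Genes of daughter cells were among those that fell. After division, daughter cells make the enzymes that digest the septum between mother and daughter. Of the 13 genes of this list, 10 fell (76.9%) and 2 rose (15.4%), with a median log2 change of −2.22 against 0.03 over all genes. With the length trend removed 10 still fell, with a median of −2.45, and on the TPM scale the median was −1.12.

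*DSE2*, a daughter-specific cell wall protein that helps to degrade the septum, is encoded on chromosome VIII from 385510 to 386487. It stood at 10.5, 14.9 and 12.8 CPM in polyploid and at 250, 219 and 374 CPM in cycling cells, a change of −4.46 ± 0.24 (adjusted p = 3.5e-15). *DSE1*, another daughter-specific gene, stood at 14.6, 12.5 and 18.6 CPM against 227, 258 and 256 CPM, a change of −4.01 ± 0.30 (adjusted p = 2.9e-12). The groups were far apart for both, with every polyploid library under 20 CPM and every cycling library above 200 CPM.

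The glucanase genes moved the same way. *SCW11*, a cell wall glucanase homolog, stood at 8.34, 12.5 and 15.7 CPM against 113, 121 and 228 CPM (−3.66 ± 0.28, adjusted p = 7.6e-12). *DSE4*, an endo-1,3-β-glucanase secreted by daughters, stood at 30.1, 29.4 and 31.9 CPM against 271, 241 and 422 CPM (−3.35 ± 0.27, adjusted p = 1.7e-11). Replicate 3 was the highest cycling library for both, and no polyploid library came near the cycling range.

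*EGT2*, which acts in cell separation, fell by 2.58 on the log2 scale, and *AMN1*, a daughter-specific inhibitor of mitotic exit, fell by 2.22. *CTS1*, the chitinase that cuts the chitin of the septum, fell far less. Its levels were 396, 471 and 429 CPM against 656, 528 and 1013 CPM, a change of −0.76 ± 0.19 (adjusted p = 0.0010). *SWI5*, a transcription factor gene, fell by 0.79 ± 0.28 (adjusted p = 0.017). *ASH1*, a repressor that is made from an mRNA sent to the daughter, rose by 0.58 ± 0.20 (adjusted p = 0.014), and *PIL1*, an eisosome component, was at 0.16 ± 0.14 and not called.

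*HO*, the mating-type switching endonuclease gene that mother cells transcribe in late G1 and that Ash1 represses in daughters, was also among the 12 named falls. It stood at 12.1, 9.56 and 6.71 CPM in polyploid and 107, 137 and 154 CPM in cycling cells (−3.81 ± 0.31, adjusted p = 2.5e-11). The levels of the groups did not overlap, which the rule for naming genes required.

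None of these genes was called at the start. At 0 h none of the 13 was called between the nocodazole and the DMSO cultures (median −0.07), where 16.8% of all genes were called. Whether the 0 h samples were taken before or after the first addition of drug is not given in the sources used here. Their DNA content already differed, at 98.2, 107 and 100 kAU in nocodazole and 87.6, 91.8 and 92.6 kAU in DMSO cultures. At 16 h, 10 of the 13 were lower in polyploid than in arrested cells and 0 were higher (median −1.24), beside 13.5% of all genes lower in that comparison. *DSE2* in arrested cells at 16 h stood at 95.2, 78.2 and 86.2 CPM, between polyploid and cycling *mad1Δ bub2Δ* cells. Polyploid cells were lower than arrested cells by 2.77 on the log2 scale (adjusted p = 3.5e-10). This order was not there at 4 h, when cycling cells were not sampled. *DSE2* then stood at 13.93, 18.03 and 17.27 CPM in arrested and 42.07, 22.92 and 37.72 CPM in polyploid cells. *DSE1* was also lower in arrested cells at 4 h, whereas the *SCW11* levels overlapped and *HO* was higher. From 8 h on every arrested library lay above the polyploid ones for *DSE2*.

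**Figure D3:**
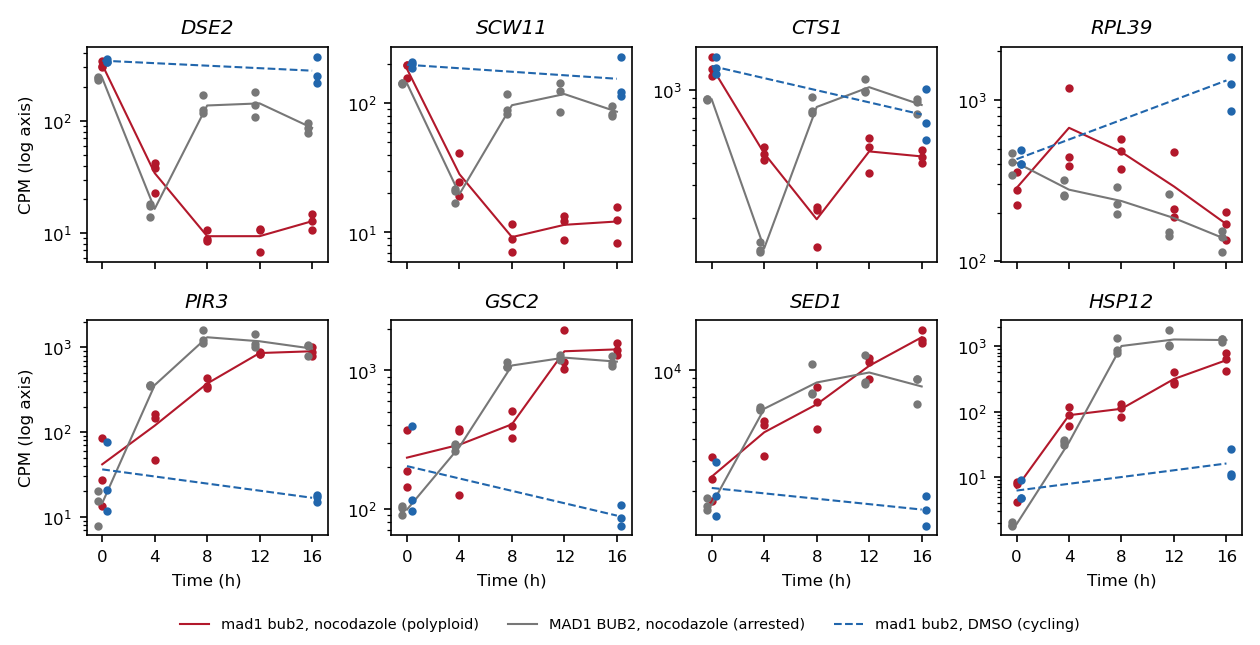
CPM (log axis) against time in hours for 8 genes; points are libraries, lines join the means of polyploid (red), arrested (grey) and cycling (blue, dashed, sampled at 0 and 16 h) cells. *DSE2* and *SCW11* are low in polyploid cells from 8 h on, while *PIR3*, *GSC2*, *SED1* and *HSP12* are higher at 16 h in both polyploid and arrested cells than in cycling cells.

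The cell wall integrity pathway senses stress at the surface through Wsc and Mid sensors and passes it through Rho1, Pkc1 and a MAP kinase cascade ending in Slt2, which activates Rlm1. Of 35 genes of the pathway and its targets, 26 rose (74.3%) and 4 fell (11.4%), with a median of 0.95. With the length trend removed 20 rose and 2 fell (median 0.85).

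The increases were greatest among wall proteins and glucan synthesis. *PIR3*, a wall protein linked to β-1,3-glucan, stood at 1013, 797 and 893 CPM in polyploid and 17.2, 18.3 and 14.8 CPM in cycling cells (5.75 ± 0.57, adjusted p = 1.1e-09). *GSC2* (also *FKS2*), the stress-induced subunit of glucan synthase, stood at 1285, 1405 and 1576 CPM against 75.2, 85.7 and 106 CPM (4.00 ± 0.42, adjusted p = 2.9e-09). *SED1*, a GPI-anchored wall protein, stood at 14513, 15024 and 17167 CPM against 1565, 1265 and 1870 CPM (3.31 ± 0.27, adjusted p = 1.8e-11). The polyploid libraries lay far above the cycling ones for each of these genes, and none of them was called at 0 h.

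The constitutive glucan synthase gene *FKS1* rose by only 0.45 ± 0.18 (adjusted p = 0.035). The chitin synthase gene *CHS3* stood at 657, 702 and 685 CPM against 215, 192 and 265 CPM (1.60 ± 0.16, adjusted p = 1.3e-09). *YPS1*, an aspartic protease at the cell surface, rose by 1.77 ± 0.18 (adjusted p = 2.0e-09), and *CWP1*, a wall mannoprotein, by 1.21 ± 0.26 (adjusted p = 2.3e-04). Both groups were tight and apart for *CHS3*.

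Genes of the cascade rose too. *SLT2*, the MAP kinase, stood at 509, 544 and 520 CPM against 263, 165 and 273 CPM (1.17 ± 0.18, adjusted p = 1.7e-06). *RLM1* stood at 261, 280 and 286 CPM against 103, 61.8 and 117 CPM (1.55 ± 0.23, adjusted p = 1.5e-06). The 4 genes that fell were *CIS3* and *CWP2*, which encode wall proteins, *GAS1*, a glucan remodelling enzyme, and *RHO1*, between −0.80 and −0.48. For *RHO1* the groups overlapped, since cycling replicate 3 stood at 427 CPM and polyploid libraries at 430 to 459 CPM. *WSC3*, a sensor, rose by 1.85 ± 0.21 (adjusted p = 1.7e-08), *MID2* rose by 0.37 ± 0.16 (adjusted p = 0.0498), and *WSC1* was at −0.26 ± 0.15 and not called.

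Compared with arrested cells at 16 h, which share the polyploid libraries, 11 of the 35 genes were higher in polyploid cells and 4 lower (median 0.24), where 27.7% of all genes were called, 14.2% higher and 13.5% lower. *PIR3* was not called (−0.10, adjusted p = 0.89) and stood at 802 to 1077 CPM in arrested cells. *SED1* was higher in polyploid cells by 0.95 (adjusted p = 0.0044), *SLT2* by 0.96 (adjusted p = 1.2e-04), and *CWP1* by 1.60 (adjusted p = 3.8e-05). *CRH2*, a chitin transglycosylase, was higher than in arrested cells by 2.13 (adjusted p = 1.5e-09) though not called against cycling cells (−0.18 ± 0.18).

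In the *cdc24-1 swe1Δ* comparison, polyploid over cycling cells, 10 of these 35 genes were called higher and 11 lower (median −0.11), where 30.7% and 25.8% of all genes were called. The difference between the 2 changes was tested over all 72 libraries, and 20 of the 35 were higher in the *mad1Δ bub2Δ* comparison and 2 lower, where 16.7% and 18.2% of all genes were called. For *SED1* the difference was 3.38 (adjusted p = 2.4e-08), with −0.08 in *cdc24-1 swe1Δ* cells, and for *YPS1* it was 2.97 (adjusted p = 8.1e-12), with −1.22. *GSC2* rose in both, by 4.00 and 2.32, and its change also differed between them (1.66, adjusted p = 0.0028). Temperature also differs between polyploid and cycling *cdc24-1 swe1Δ* cells. Neither the step in DNA content nor the strain background is the same in the 2 comparisons. The parts of temperature, DNA content and strain in these differences cannot be told apart.

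The osmosensing list, with the Hog1 pathway and glycerol genes, had 13 of 19 genes risen and 1 fallen (median 0.44). The MAP kinase kinase kinase gene *SSK22* stood at 297, 318 and 346 CPM against 55.2, 46.7 and 54.6 CPM (2.62 ± 0.20, adjusted p = 5.7e-12). The glycerol synthesis gene *GPP1* fell by 1.5 ± 0.18 (adjusted p = 2.3e-08), and *GPD1* was at 0.11 ± 0.23. Upstream members rose, among them the *HKR1* sensor gene (1.87 ± 0.26) and *STE11*, another MAP kinase kinase kinase gene (1.47 ± 0.16).

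**Figure D4:**
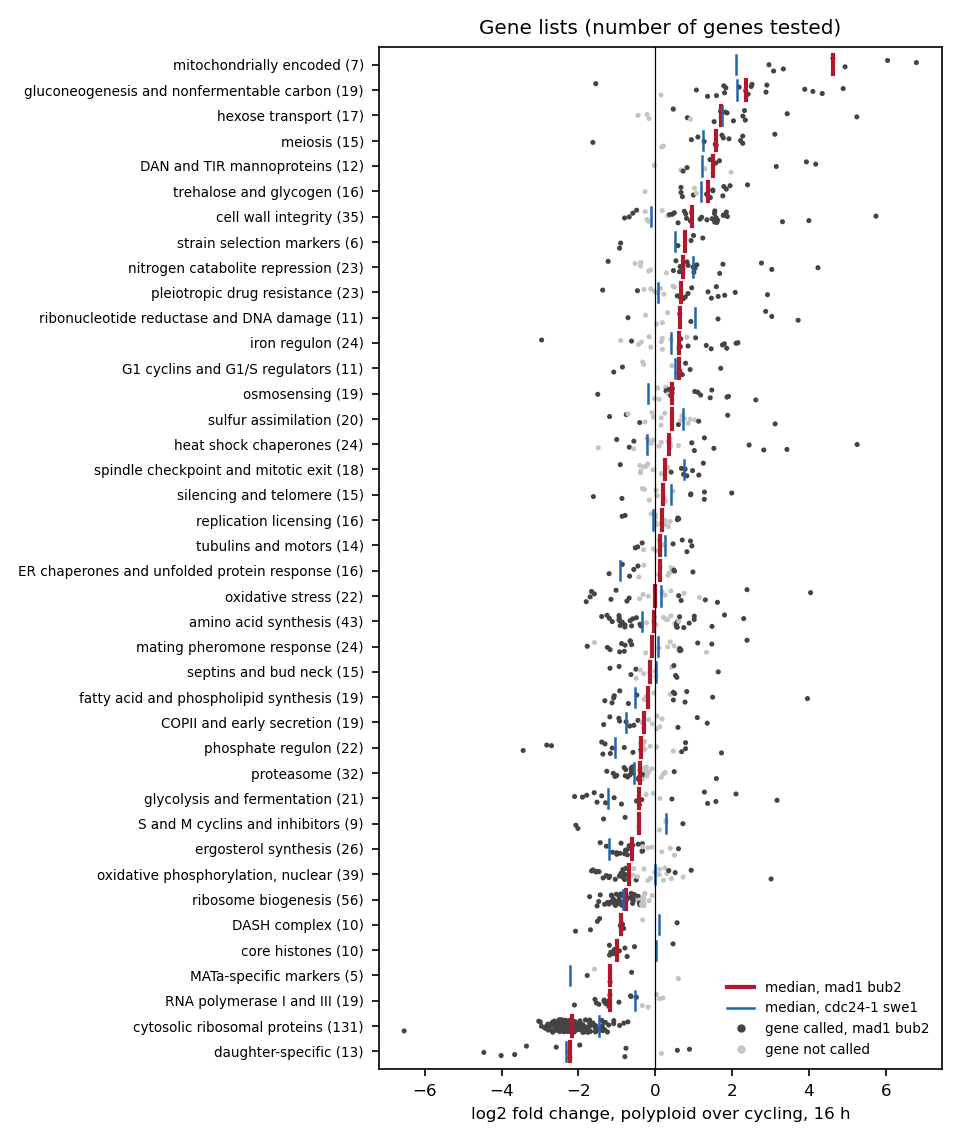
Log2 fold change of polyploid over cycling cells at 16 h for the members of the gene lists (number tested in brackets); dark points were called and light ones not, the red bar is the *mad1Δ bub2Δ* median and the blue bar the median of the same genes in *cdc24-1 swe1Δ* cells. Lists run from daughter-specific genes (median −2.22) at the bottom to mitochondrially encoded genes at the top, and the red and blue bars lie far apart for the cell wall integrity list (0.95 and −0.11).

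Ribosomal protein genes fell together. All 131 tested of 132 fell (0 rose), with a median of −2.18 and a range from −3.03 to −0.71 apart from *RPL41B*, which had 0 counts in the polyploid libraries and was at least 3.65-fold lower against a floor of 3 counts per library. With that gene at its bound the median was −2.13. The median was −1.73 with the length trend removed, with 129 called lower, and −1.0 on the TPM scale, with 118 lower and 1 higher. Pairs of nearly identical copies share reads, so the split between copies is uncertain.

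*RPL39*, a ribosomal protein of the large subunit, stood at 136, 204 and 170 CPM in polyploid and 1260, 1855 and 853 CPM in cycling cells (−2.96 ± 0.36, adjusted p = 4.8e-08). *RPL9A* stood at 448, 520 and 436 CPM against 3468, 4284 and 2274 CPM (−2.84 ± 0.28, adjusted p = 7.1e-10). In both genes cycling replicate 2 was the highest and replicate 3 the lowest cycling library, and all 3 lay far above the polyploid range. *RPS30B*, *RPL18B*, *RPL26B* and *RPS22A* were also among the 12 named falls, between −3.03 and −2.83. The next fall outside the 12 was *PHO12* at −2.82, and the next rise outside was *ERR1* at 4.45 after *GAS2* at 4.46.

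A part of the difference was there in the 0 h samples. At 0 h, 39 of the 131 were already lower in the nocodazole cultures (median −0.44), where 9.69% of all genes were called lower. The difference between the changes from 0 to 16 h, nocodazole minus DMSO, had a median of −1.72. Their share of the counts without ribosomal RNA ran from 12.1 ± 0.633% at 0 h to 8.06 ± 0.416% at 16 h in polyploid cells and from 15.8 ± 2.02% to 25.4 ± 4.04% in cycling cells (SD, n = 3). In between, the share of the nocodazole cultures was 17.8 ± 5.89% at 4 h, 17.8 ± 1.89% at 8 h and 10.9 ± 2.33% at 12 h, while the DMSO cultures were sampled at 0 and 16 h.

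Polyploid cells were not the lowest. Against arrested cells, whose share was 5.35 ± 0.758% (SD, n = 3), 85 of 131 were higher and 0 lower (median 0.69). In *cdc24-1 swe1Δ* cells 122 fell and 0 rose (median −1.46), and 51 of 131 changed more strongly downward in *mad1Δ bub2Δ* cells and 3 less.

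Ribosome assembly factors fell too. Of 56 genes of ribosome biogenesis 42 fell (75.0%) and 0 rose, with a median of −0.76 that turned to 0.25 on the TPM scale. All 56 were already lower at 0 h (median −1.0), and the changes from 0 to 16 h differed by a median of 0.23 in the other direction. *IMP3*, a component of the small subunit processome, stood at 31.8, 31.9 and 26.1 CPM against 92.5, 94.5 and 62.0 CPM at 16 h (−1.47 ± 0.25) and was at −1.03 at 0 h. RNA polymerase I and III subunits showed the same order of values, with 14 of 19 lower at 16 h (median −1.18, −0.77 with the length trend removed, and −0.01 on the TPM scale) and 16 of 19 lower at 0 h (median −0.87).

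Nutrient genes moved widely. Genes of gluconeogenesis and nonfermentable carbon use, which glucose represses, had 17 of 19 risen (89.5%) and 1 fallen, with a median of 2.35. *ADR1*, an activator of glucose-repressed genes, stood at 217, 188 and 255 CPM against 6.92, 7.95 and 17.3 CPM (4.35 ± 0.38, adjusted p = 6.6e-11). *FBP1*, fructose-1,6-bisphosphatase, stood at 13.7, 14.2 and 13 CPM against 0.706, 0.162 and 0.423 CPM (4.89 ± 0.51, adjusted p = 2.8e-09). *ALD6*, a cytosolic aldehyde dehydrogenase gene that works also on glucose, was the one that fell (−1.55).

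Arrested cells held more of these transcripts than polyploid cells, with 15 of 19 lower in polyploid cells (median −1.57) and 0 higher. *ADH2*, the alcohol dehydrogenase that consumes ethanol, stood at 6.61, 11.1 and 7.61 CPM in polyploid, 1.27, 1.30 and 1.83 CPM in cycling and 82.6 ± 2.27 CPM (SD, n = 3) in arrested cells. The *cdc24-1 swe1Δ* comparison gave 17 higher and 2 lower (median 2.12).

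Glycolysis and fermentation had 12 of 21 genes fallen and 6 risen (median −0.41, and 0.62 on the TPM scale). *TDH2*, a glyceraldehyde-3-phosphate dehydrogenase gene with near-identical copies, stood at 842, 759 and 802 CPM against 3771, 2906 and 3611 CPM (−2.10 ± 0.25, adjusted p = 4.0e-08). *PDC1*, the main pyruvate decarboxylase gene, was not called (−0.24 ± 0.16), and the minor forms *PDC5* and *PDC6* rose. Hexose transport had 12 of 17 risen and 0 fallen (median 1.70). *HXT5* stood at 29.4, 23.6 and 30.0 CPM against 3.53, 1.62 and 2.40 CPM (3.44 ± 0.26, adjusted p = 6.1e-12), and the glucose transporter gene *HXT1* was at −0.21 and not called.

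Reserve carbohydrate genes rose, with 13 of 16 for trehalose and glycogen and 0 fallen (median 1.39). *GDB1*, the glycogen debranching enzyme, and *GPH1*, glycogen phosphorylase, were at 2.40 and 1.95. Of 24 chaperone genes 8 rose (33.3%) and 3 fell (12.5%), beside 30.6% of all genes each way (median 0.36). With the length trend removed 5 rose and 4 fell (median 0.21). *HSP12*, a small membrane-binding heat shock protein, stood at 779, 420 and 646 CPM against 11.3, 26.9 and 10.3 CPM (5.26 ± 0.37, adjusted p = 1.1e-12). *HSP26* rose by 3.43 ± 0.53, while *SSA2* and *YDJ1*, the constitutive Hsp70 and its partner, were at −0.10 and −0.06. In arrested cells *HSP12* was higher still, and polyploid cells were lower by 1.02 (adjusted p = 0.012).

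Among the rises that the naming rule selected, *SNO1*, which acts in vitamin B6 metabolism with *SNZ1* beside it, stood at 47.4, 34.3 and 38.6 CPM against 0.424, 0.812 and 0.282 CPM (6.29 ± 0.52, adjusted p = 2.7e-11). *NCE103*, carbonic anhydrase, stood at 1244, 1134 and 986 CPM against 35.9, 58.3 and 35.3 CPM (4.70 ± 0.40, adjusted p = 6.5e-11). *GAS2*, a glucan remodelling enzyme of spores, stood at 191, 226 and 264 CPM against 10.9, 6.82 and 13 CPM (4.46 ± 0.27, adjusted p = 6.5e-14). All were far above the cycling range.

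*GAS2* started from a lower level in the nocodazole cultures, with −1.60 at 0 h (adjusted p = 2.1e-04), and *SNO1* and *NCE103* were not called at 0 h. *SPG4*, a gene needed for survival in stationary phase, rose by 5.65 ± 0.41 from under 1 CPM in each cycling library. *DPA10* rose by 5.15 ± 0.47 (6.03 without cycling replicate 2), *DSF1*, a mannitol dehydrogenase homolog, by 4.91 ± 0.33, and *MAL12*, a maltase with close copies, by 4.67 ± 0.40. Arrested cells held more of *SPG4*, *DPA10* and *DSF1*, with polyploid minus arrested differences of −2.24, −2.43 and −1.26 (adjusted p = 3.8e-07, 4.5e-06 and 3.0e-04), and *MAL12* was not called in that comparison (−0.42, adjusted p = 0.34). Of the other falls under the rule, *FRE4*, a ferric reductase gene, was at −2.96 ± 0.45 at 16 h but already at −2.41 at 0 h (adjusted p = 1.6e-04), and the difference between the changes from 0 to 16 h was not called (−0.55, adjusted p = 0.48).

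Mitochondrial transcripts lay higher in polyploid libraries. Yeast mitochondrial mRNAs carry no long poly(A) tail, so few are kept by poly(A) selection, and their summed share was 0.0710%, 0.0726% and 0.352% in polyploid and 0.00397%, 0.00804% and 0.0168% in cycling libraries. All 7 tested of 8 protein genes of the mitochondrial genome rose, from 2.96 upward. Their median was 4.63, or 3.34 with *VAR1*, which had 0 counts in the cycling libraries, at its bound of at least 4.58-fold higher. *COX1*, a subunit of cytochrome c oxidase, stood at 56.4, 74.4 and 237 CPM against 9.60, 20.3 and 13.8 CPM (3.08 ± 0.66, adjusted p = 2.1e-04), with replicate 3 highest among the polyploid libraries. That library also held the most ribosomal RNA, another transcript with little poly(A), at 6.03% of its counts, and the part of selection or RNA quality in these values was not tested.

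*AI1*, *AI2* and *AI4*, reading frames in introns of *COX1* and among the 12 named rises, overlap it and cannot be separated from it. They changed by 4.78 ± 0.94, 7.01 ± 1.33 and 5.95 ± 1.12, and by 3.87, 6.10 and 4.77 without polyploid replicate 3. Each was also lower in the cycling cultures at 16 h than at 0 h. *AI2* stood there at 16.6, 10.5 and 44.4 CPM at 0 h and at 1.13, 0.162 and 1.55 CPM at 16 h. These 16 h values rest on 8, 1 and 11 counts, and those of *AI4* on 2, 4 and 10, near the floor of 3. Without cycling replicate 3, *AI1* was at 5.38 and *AI4* at 6.72. In arrested cells *AI2* stood at 200, 26.3 and 11.4 CPM, against 77.6, 58.0 and 250 CPM in polyploid cells, and the difference was not called (adjusted p = 0.61).

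Nuclear genes of oxidative phosphorylation did not follow. Of 39 genes, 21 fell and 4 rose (median −0.69, and 0.53 on the TPM scale). With the length trend removed 12 fell and 6 rose (median −0.17), since the subunits are short, at a median of 468 bases. *NDE1*, the external NADH dehydrogenase, and its copy *NDE2* were among the 4 that rose (0.94 ± 0.16 and 3.02).

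The genes of the cell cycle were split. Core histone genes, which peak in S phase, had 9 of 10 fallen and 1 risen (median −1.0). With the length trend removed 6 fell (median −0.41), and on the TPM scale the median was 0.16. *HTA2*, a histone H2A gene, stood at 185, 199 and 136 CPM in polyploid, 435, 496 and 256 CPM in cycling and 51.3 ± 3.20 CPM (SD, n = 3) in arrested cells. Polyploid cells were thus between the other groups, and 8 of the 10 were higher in polyploid than in arrested cells and 0 lower (median 0.97).

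Mitotic cyclin genes were low. *CLB2* stood at 24.7, 24.2 and 21.9 CPM against 64.9, 56.0 and 59.1 CPM (−1.34 ± 0.24, adjusted p = 1.9e-05), and *CLB1* at 25.5, 20.8 and 18.2 CPM against 60.1, 120 and 80.7 CPM (−2.01 ± 0.31, adjusted p = 3.0e-06). Both were lower than in arrested cells too, by 0.97 and 1.12. Over the 9 S and M phase cyclins and inhibitors 4 fell and 1 rose (median −0.43, which was 0.52 on the TPM scale and 0.11 without cycling replicate 3). *FAR1*, the cyclin-dependent kinase inhibitor of the pheromone response, fell by 2.07 ± 0.25 (adjusted p = 3.7e-08).

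The G1 list had 6 of 11 risen and 2 fallen (median 0.61), and 4 risen and 3 fallen with the length trend removed (median 0.20). *SWI6*, the shared subunit of the G1/S transcription factors, stood at 236, 254 and 301 CPM against 76.2, 65.9 and 101 CPM (1.70 ± 0.17, adjusted p = 1.1e-09), whereas *CLN1* and *PCL2*, targets of those factors, fell by 0.85 and 1.08. *CLN2* was not called (−0.33 ± 0.20). Replication licensing had 3 of 16 risen (18.75%) and 2 fallen (12.5%), under the 30.6% of all genes each way. Its median was 0.18, and −0.16 with the length trend removed.

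Of the spindle checkpoint and mitotic exit list 8 of 18 rose and 1, the polo kinase gene *CDC5*, fell (−0.91 ± 0.20, adjusted p = 3.4e-04), with a median of 0.24. With the length trend removed 5 rose and 4 fell (median 0.15). Tubulin and motor genes had 5 of 14 risen (35.7%) and 3 fallen (21.4%), beside 30.6% of all genes each way. Their median was 0.12, and −0.23 with the length trend removed. *TUB2*, β-tubulin, the protein to which nocodazole binds, stood at 390, 390 and 302 CPM against 523, 440 and 523 CPM (−0.46 ± 0.13, adjusted p = 0.0037). The DASH complex, which couples kinetochores to microtubules, had 8 of 10 fallen and 1 risen (median −0.89). With the length trend removed 4 fell (median −0.59), and on the TPM scale the median was 0.19. Septin and bud neck genes were even, at 4 of 15 each way (26.7%, beside 30.6% of all genes). Their median was −0.14, −0.22 with the length trend removed, and 0.87 on the TPM scale.

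DNA damage genes included large rises. Of the 11 genes of ribonucleotide reductase and damage response 6 rose and 1 fell (median 0.64, and 0.98 with the length trend removed). *RNR3*, the damage-induced large subunit, stood at 37.8, 32.6 and 41.3 CPM against 4.52, 2.92 and 6.06 CPM (3.03 ± 0.25, adjusted p = 2.2e-11), and *RAD54*, a recombination gene, at 130, 122 and 147 CPM against 38, 33.6 and 56.8 CPM (1.63 ± 0.18, adjusted p = 4.4e-09). *DDI2* and *DDI3*, a pair of near-identical copies, were at 2.87 and 3.72, and *RNR1* and *HUG1* were not called, at 0.19 and 0.32. Arrested cells held more *RNR3* (77.1 ± 14.3 CPM, SD, n = 3), and no gene of this list was higher in polyploid than in arrested cells while 5 were lower.

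Ergosterol synthesis genes fell, with 19 of 26 lower and 1, the activator gene *ECM22*, higher (median −0.61, and 0.43 on the TPM scale). *ERG11*, lanosterol demethylase, stood at 839, 943 and 759 CPM against 1930, 1617 and 1936 CPM (−1.11 ± 0.17, adjusted p = 1.4e-06). The key enzyme gene *HMG1* was not called (−0.09 ± 0.20). Against arrested cells 4 were higher and 4 lower (median 0.15), where 14.2% and 13.5% of all genes were. In *cdc24-1 swe1Δ* cells 24 of 26 fell (median −1.21), and the change differed between the comparisons for 13 genes, 12 of them less negative in *mad1Δ bub2Δ* cells.

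Genes of drug export were high at the start. Of 23 pleiotropic drug resistance genes 13 rose and 2 fell at 16 h (median 0.66), and 9 rose and 4 fell with the length trend removed (median 0.18). Of the same genes 14 were already higher at 0 h (median 0.78), where 7.14% of all genes were. *SNQ2*, a multidrug pump, stood at a mean of 6351 CPM in the nocodazole cultures and 328 CPM in the DMSO cultures at 0 h (4.28, adjusted p = 1.8e-12). At 16 h it stood at 290, 303 and 329 CPM against 138, 153 and 246 CPM (0.78 ± 0.25, adjusted p = 0.0077). *PDR5*, the main pump, was at 1.66 at 0 h and 0.14 ± 0.21 at 16 h, not called. Of the calls at 16 h some were shared with 0 h, from the same cultures: 204 of the 1844 genes higher at 16 h (11.1%) were also higher at 0 h, and 348 of the 1841 lower genes (18.9%) were lower. The count at 0 h varied with the libraries used, with 1014 genes called over all. It was 661, 564, 592 and 552 without nocodazole replicate 1 or 2 or DMSO replicate 1 or 2. Without nocodazole replicate 3 it was 1090, and without DMSO replicate 3 it was 1316. In the list of genes under nitrogen catabolite repression 16 of 23 rose and 1 fell at 16 h (median 0.72, and 0.44 with the length trend removed), with 18 higher at 0 h (median 1.30).

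Proteasome genes had 18 of 32 fallen and 2 risen (median −0.40, and 0.66 on the TPM scale), and 16 were higher at 0 h. *RPN4*, the activator of proteasome genes, stood at 252, 233 and 288.1 CPM against 84.3, 84.9 and 87.4 CPM (1.59 ± 0.20, adjusted p = 8.8e-08), opposite in direction to most of its list. Amino acid synthesis had 13 of 43 risen (30.2%) and 19 fallen (44.2%), beside 30.6% of all genes each way, with *LYS9* at −1.39. Its median was −0.02, −0.32 with the length trend removed, and 1.0 on the TPM scale. Sulfur assimilation had 4 of 20 risen (20%) and 3 fallen (15%), under the 30.6% of all genes each way (median 0.43). The iron regulon had 11 of 24 risen and 2 fallen (median 0.63, and 0.35 with the length trend removed).

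The phosphate regulon had 11 of 22 fallen and 4 risen (median −0.38, −0.67 with the length trend removed, and 0.63 on the TPM scale). *SPL2*, which acts on low-affinity phosphate uptake, stood at 25.0, 31.6 and 27.6 CPM against 200, 246 and 102 CPM (−2.70 ± 0.35, adjusted p = 1.4e-07), and *PHO84*, the high-affinity transporter, was not called (−0.38 ± 0.23). Of the oxidative stress list 8 of 22 fell (36.4%) and 6 rose (27.3%), beside 30.6% of all genes each way (median 0.00). With the length trend removed 6 fell and 9 rose (median 0.26). *SOD1*, superoxide dismutase, fell by 1.59 ± 0.21 (adjusted p = 1.7e-07), and *SRX1*, sulfiredoxin, rose by 4.04 ± 0.61.

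Secretory genes moved in both directions. Early secretion had 8 of 19 fallen and 3 risen (median −0.30, −0.48 with the length trend removed, and 0.72 on the TPM scale). *SEC24*, the cargo adaptor of COPII coats, was one of the 3, at 942, 876 and 1005 CPM against 350, 346 and 408 CPM (1.35 ± 0.13, adjusted p = 7.7e-10), and polyploid cells also exceeded arrested cells (1.12, adjusted p = 2.4e-07). Endoplasmic reticulum chaperones had 3 of 16 risen (18.75%) and 5 fallen (31.25%), beside 30.6% of all genes each way. Their median was 0.11, and 0.039 with the length trend removed. In *cdc24-1 swe1Δ* cells 13 of them fell and 0 rose, and 10 differed between the comparisons, all upward. Fatty acid and phospholipid synthesis had 7 of 19 each way (36.8%, beside 30.6% of all genes), from *OLE1* at −1.31 ± 0.29 to *INO1* at 3.96 ± 0.34. Its median was −0.19, and 0.86 on the TPM scale.

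Genes of special cell states were mostly at low levels. Of 15 meiosis genes 12 rose and 1 fell (median 1.59). *REC8*, meiotic cohesin, stood at 18.7, 14 and 16.6 CPM against 2.54, 2.60 and 0.564 CPM (3.11 ± 0.38, adjusted p = 4.9e-08). *RME1*, a repressor of meiosis, was the one that fell, by 1.62 ± 0.20 (adjusted p = 3.8e-08). Polyploid cells were lower than arrested cells for 7 of these 15 and higher for 1. The *DAN*, *TIR* and *PAU* mannoprotein genes of anaerobic growth had 8 of 12 risen and 0 fallen (median 1.5), though several have near-identical copies and low counts.

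Markers of mating type were compared with the *MATa* label. *STE2*, the receptor of *MATa* cells for α-factor, stood at 285, 333 and 295 CPM against 627, 715 and 719 CPM (−1.17 ± 0.15, adjusted p = 1.2e-07), and of the 5 tested *MATa* markers 3 fell and 0 rose (median −1.17). The 5 *MATa* markers summed to 583 to 653 CPM in polyploid and 1176 to 1438 CPM in cycling libraries. The 4 *MATα* markers summed to 40.6 to 66.7 CPM against 14.1 to 22.1 CPM, with a median change of 1.25. *MF(ALPHA)1* rose by 3.01 ± 1.12 (adjusted p = 0.021) and *SAG1* by 1.53 ± 0.27 (adjusted p = 1.4e-05), and the other 2 were not called. The pheromone response list had 10 of 24 fallen (41.7%) and 6 risen (25%), beside 30.6% of all genes each way. Its median was −0.08, −0.14 with the length trend removed, and 0.74 on the TPM scale.

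Among the marker genes of the strain 4 of 6 rose and 2, *LEU2* and *URA3*, fell, and *HIS3*, carried by the *bub2::HIS3* allele, rose by 1.00. Silencing and telomere genes had 5 of 15 risen (33.3%) and 2 fallen (13.3%), beside 30.6% of all genes each way. Their median was 0.21, and −0.41 with the length trend removed. *EST2*, the catalytic subunit of telomerase, stood at 88.2, 110 and 126 CPM against 26.8, 26.5 and 28.2 CPM (1.99 ± 0.20, adjusted p = 1.0e-09).

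Position on the chromosome went with the change. Of the 85 genes under 10 kb from a chromosome end 54 rose (63.5%) and 4 fell, with a median of 1.77, which stayed at 1.54 with the length trend removed. The median was 0.62 for 240 genes at 10 to 30 kb, 0.05 for 1065 genes at 30 to 100 kb and −0.06 for 4290 genes farther in. Many genes near the ends belong to families with near-identical copies, so single genes there are uncertain. The same bin had a median of −0.20 against arrested cells and 0.44 in *cdc24-1 swe1Δ* cells. Both groups had moved from the level of cycling cells at 0 h. Relative to it, this bin minus the genes beyond 100 kb had a median log2 level of 0.90, 0.86 and 1.09 in polyploid libraries. In cycling libraries this was −0.58, −0.63 and −0.62 at 16 h, and −0.11, −0.01 and 0.12 at 0 h.

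Of the 16 chromosomes, XII, which carries the ribosomal DNA, had the highest median. Over its 471 genes more than 30 kb from the ends the median change was 0.38, with 0.45 on the left arm, 0.30 between the centromere and the ribosomal RNA genes and 0.38 beyond them. The other 15 chromosomes had medians between −0.19 and 0.15. Relative to the other chromosomes and to cycling cells at 0 h, its median level was 0.29, 0.33 and 0.39 in polyploid and −0.04, −0.03 and 0.00 in cycling libraries (difference of means 0.36, and −0.13 to 0.17 for the other chromosomes). The chromosome was chosen for its median, so no test is given.

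Arrested libraries gave 0.23, 0.55 and 0.40 for chromosome XII. In *cdc24-1 swe1Δ* cells the median of its genes was 0.10. The arrested values spread below and above the polyploid ones.

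**Figure D5:**
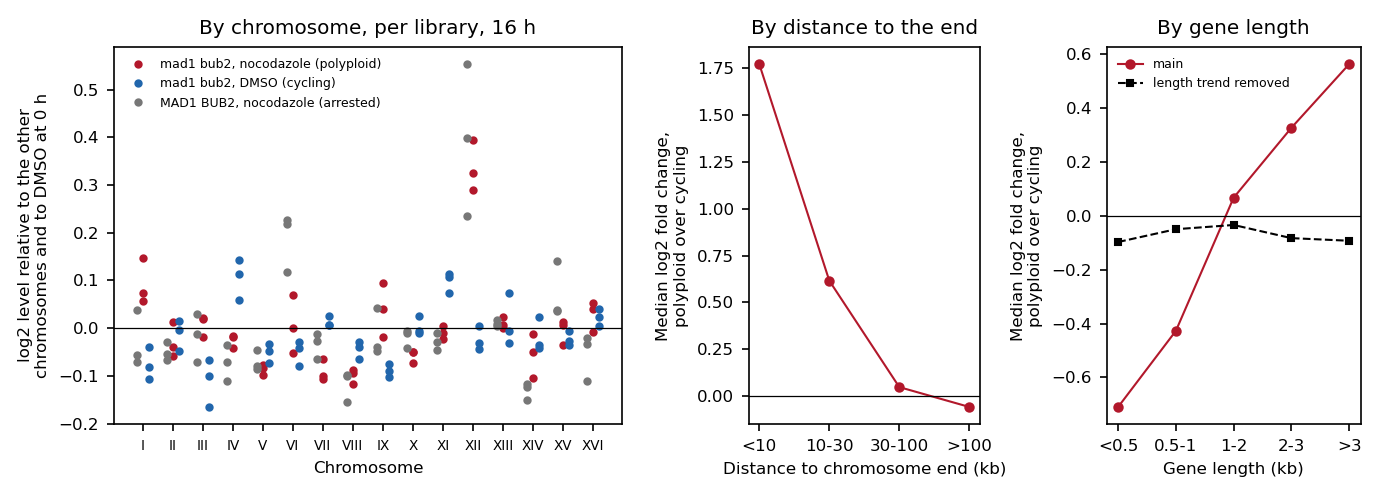
Left, median log2 level of the genes of each chromosome relative to the other chromosomes and to DMSO cultures at 0 h, 1 point per library at 16 h; middle and right, median log2 fold change of polyploid over cycling cells by distance to the chromosome end (kb) and by gene length (kb, the dashed line with the length trend removed). Chromosome XII lies at 0.29 to 0.39 in polyploid libraries, and the median falls from 1.77 under 10 kb from an end to −0.06 beyond 100 kb.

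The comparisons of the 2 strains shared called genes. Over 5959 genes tested in both, 1037 were higher in each comparison, 56.9% of the 1822 higher genes of *mad1Δ bub2Δ* cells and 56.6% of the 1832 of *cdc24-1 swe1Δ* cells. A further 937 were lower in each, 50.9% and 60.3% of the respective lists, while 149 and 146 were called in opposite directions. The change differed between the comparisons for 2146 of 6148 genes (34.9%), 1025 of them higher in *mad1Δ bub2Δ* cells and 1121 lower.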

How the data were processed

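Poly(A)-selected RNA was sequenced by the authors from a kit that does not mark strand, and the reads were aligned with STAR and quantified with Salmon against build R64. The authors deposited estimated counts (expected counts, rounded to whole numbers and not normalized) for 6843 features and log2(TPM + 1) values. Gene names and coordinates came from RefSeq R64 (6014 features matched). Totals of 1597321 to 9987276 per library limit the precision of low genes, and floors of 3 counts cover counting error only.

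Counts were normalized by TMM, and low genes removed by filterByExpr. The quasi-likelihood test of edgeR 4.0.16 (R 4.3.3) was then run (glmQLFit and glmQLFTest, 1 coefficient per group over 36 libraries, 72 for the difference between the tests), calling genes at a Benjamini-Hochberg adjusted p under 0.05. The study itself fitted DNA content as a continuous variable with DESeq2. On simulated data 155 of 200 genes changed 2-fold were recovered for the 16 h comparison over 5935 genes, with 9 false calls. A case with as many changed genes as the 3685 called at 16 h was not tested. Named genes were the 12 largest rises and 12 largest falls among called genes with a symbol, no overlap of the groups and a mean of at least 20 CPM in the higher group, the deleted genes, up to 4 members of each list with the smallest p, and members needed to describe it. The members, lists and rule were chosen with earlier results of these data known, and the Rlm1 motif and the length check after the data were seen.

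Alternatives were RLE size factors, DESeq2 1.42.0, no filter or at least 10 counts in every library, the replicate block, edgeR's robust option, limma 3.58.1 on log2(TPM + 1), removal of ribosomal RNA features, fits on fewer libraries, 12 h in place of 16 h, a 2-fold threshold, a prior count of 0.5 in place of 2, omission of each replicate and, added later, removal of a lowess trend (span 0.3) on gene length. Same-numbered cultures deviated together at 0 h (correlations 0.348, 0.117 and 0.391) but not at 16 h (−0.00036, −0.0453 and 0.0978), so the numbers were not used as pairs at 16 h.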

Additional observations from a re-analysis of the deposited data

Results flagged for a closer look

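For 17 of the 24 named genes the change from cycling to polyploid cells differed between the comparisons made in *cdc24-1 swe1Δ* and in *mad1Δ bub2Δ* strains by edgeR's quasi-likelihood test of that difference over all 72 libraries. Over all genes, 2146 of 6148 (34.9%) differed. The 24 were chosen for large changes in *mad1Δ bub2Δ* cells, and those changes are part of the tested difference. The count of 17 therefore cannot be read against the share of all genes. Values below are the log2 change in *mad1Δ bub2Δ* cells minus that in *cdc24-1 swe1Δ* cells. Temperature, drug, strain background, the step in DNA content and library depth differ between the comparisons, and their part was not tested.

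Among the falls, the difference was −1.69 for *DSE1* (adjusted p = 9.4e-04) and −3.02 for *HO* (adjusted p = 2.2e-08). *HO* changed by −3.81 in *mad1Δ bub2Δ* and −0.80 in *cdc24-1 swe1Δ* cells. The ribosomal protein genes *RPS30B*, *RPL18B*, *RPL39*, *RPL26B* and *RPS22A* gave −2.04, −1.70, −2.09, −1.44 and −1.16, and each was lower in *mad1Δ bub2Δ* cells.

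Among the rises, the difference was 4.18 for *PIR3* (adjusted p = 1.2e-05), which changed by 5.75 and 1.54. It was 3.92 for *SNO1*, 3.24 for *HSP12*, 2.90 for *NCE103*, 2.03 for *GAS2*, 1.91 for *SPG4* and 1.40 for *MAL12*. The overlapping mitochondrial reading frames *AI2*, *AI4* and *AI1* gave 6.97, 6.69 and 3.48, with the highest level of each in polyploid replicate 3. Cycling *mad1Δ bub2Δ* libraries held few counts of *AI2* and *AI4*, as given above.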

How the results depend on the processing

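The 24 genes named for the largest changes kept their direction and their side of the threshold in all 447 alternative values of fits that tested them. They were chosen for large called changes in the same libraries, so this outcome was close to fixed by the choice. Called genes at 16 h numbered 3739 with the replicate block, 3195 to 3701 with 1 library left out, 4547 by limma on log2(TPM + 1) and 1814 when a 2-fold change was also asked. At 0 h the count was 1014, with 1061 under the replicate block, 565 in the 21 libraries of the strain and 552 to 1316 with 1 library left out. Same-numbered cultures did not deviate together at 16 h, where not every library correlated best with its own number. Of 779 list medians under alternatives 695 moved by less than the spread between replicates, 74 moved further and 10 turned from beyond that spread to the other side of 0. In all, 31 lay on the other side of 0. On the TPM scale, where the median of all genes was 0.99, the medians of DASH, S and M cyclins, core histones, ergosterol, glycolysis, oxidative phosphorylation, proteasome and ribosome biogenesis genes were 0.19, 0.52, 0.16, 0.43, 0.62, 0.53, 0.66 and 0.25. The cyclin median ran from −0.77 to 0.11 with 1 library left out, the latter without cycling replicate 3, and replication licensing was at −0.16 with the length trend removed. *MAD1* was at 0.49 on the TPM scale, and was called at −0.58 without ribosomal RNA features, −0.93 with the length trend removed and −0.75 without cycling replicate 3. The cause of these shifts was not tested. Totals of 5136065 to 8234311 counts limit the genes near 1 CPM.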
